A study of Mus musculus with 40 samples.

Results

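Immediate early genes, 9 in number, were followed through liver, duodenum and ileum of mice with a shortened small intestine. A list named 10 genes, Klf6, Klf4, Fos, Fosb, Jun, Junb, Egr1, Atf3, Ier2 and Dusp1, and their rows were taken from a table of 15958 genes. The expression of Fosb was not analysed here, which left 9 genes, and all 9 passed the filter on low values in each tissue.

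The mice were wild-type C57BL/6 males that had a small bowel resection (SBR) or a sham operation at 8 weeks of age. From 3 weeks after surgery they were given vehicle or WUSTL0717, an agonist of the liver X receptor (LXR) that stays mostly in the gut, at 30 mg/kg daily for 7 weeks. RNA of whole tissue was sequenced in 40 libraries: 5 livers of sham vehicle, 8 of SBR vehicle and 5 of SBR WUSTL0717, and in the same order 3, 4 and 4 duodena and as many ilea. No sham group received the drug, so the drug was compared only among resected mice. In the sham operation the bowel was cut and rejoined without removal of tissue, so both kinds of mice had been through surgery. The labels do not say which liver, duodenum and ileum came from the same mouse.

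Immediate early genes are switched on within minutes of a growth factor, stress or injury signal, without need of new protein, because their promoters are held ready for factors such as SRF, ELK1 and CREB that the MAP kinases act on. Most encode transcription factors of short life: FOS, JUN and JUNB pair into AP-1, EGR1 and the Kruppel-like factors KLF4 and KLF6 are zinc finger proteins, and ATF3 is a stress-induced factor of the ATF/CREB family. DUSP1 is the phosphatase that switches the MAP kinases off again. In liver, this group is known for its response to partial hepatectomy and hepatocyte injury, and KLF6 is known from activated stellate cells. These transcripts also rise quickly while tissue is being removed and handled, and no value in the table measures handling time.

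Sequence before the start site was examined for 8 of the 10 listed genes, as RefSeq gives it for GRCm38.p6, in windows of 250 bases. It is shown for Klf6, Jun, Atf3 and Dusp1, the genes whose windows held a match to the motifs below. Klf6, Jun and Atf3 had among the largest differences of the group in liver, and the level of Dusp1 there did not pass the test. Whether a match goes with a rise was not tested. A set of 4 motifs was searched on both strands: TGACGTCA, the element bound by CREB and ATF factors, the wider form TGACNTCA that includes it, TTACGTCA, and TGANTCA, the AP-1 element. TGACNTCA was found in 7.49% of 32851 windows of the same length, TGACGTCA in 1.55%, TTACGTCA in 0.447% and TGANTCA in 6.75%. Klf6 holds TGACATCA at 119 to 112 bases before its start and Jun holds the same letters at 45 to 38 bases before its start. Atf3 holds TTACGTCA at 10 to 3 bases before the start, and Dusp1 holds TGACGTCA at 143 to 136 bases before it. The windows of Klf4, Fos, Fosb and Junb hold none of the 4 motifs, and none of the 8 windows holds TGANTCA. Egr1 and Ier2 have no window here. Each window is written 5′ to 3′ on the strand of the gene, with the match in capitals. They lie at chr13:5861239-5861488 (plus strand), chr4:95052223-95052472 (minus strand), chr1:191183334-191183583 (minus strand) and chr17:26508473-26508722 (minus strand), in the order given.
Klf6: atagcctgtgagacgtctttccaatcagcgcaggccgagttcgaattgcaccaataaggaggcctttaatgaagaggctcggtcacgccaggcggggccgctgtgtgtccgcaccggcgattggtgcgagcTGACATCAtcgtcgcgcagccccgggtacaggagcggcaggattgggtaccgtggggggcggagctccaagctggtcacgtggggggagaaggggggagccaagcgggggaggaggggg
Jun: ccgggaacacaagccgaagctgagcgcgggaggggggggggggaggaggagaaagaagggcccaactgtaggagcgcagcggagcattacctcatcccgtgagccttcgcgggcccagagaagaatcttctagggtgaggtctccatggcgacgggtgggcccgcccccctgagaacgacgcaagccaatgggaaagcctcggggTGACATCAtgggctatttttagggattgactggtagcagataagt
Atf3: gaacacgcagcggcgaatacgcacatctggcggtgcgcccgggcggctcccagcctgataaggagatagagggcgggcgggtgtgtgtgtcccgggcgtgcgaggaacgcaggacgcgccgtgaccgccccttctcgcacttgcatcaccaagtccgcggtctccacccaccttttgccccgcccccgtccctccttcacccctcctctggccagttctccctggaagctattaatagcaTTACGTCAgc
Dusp1: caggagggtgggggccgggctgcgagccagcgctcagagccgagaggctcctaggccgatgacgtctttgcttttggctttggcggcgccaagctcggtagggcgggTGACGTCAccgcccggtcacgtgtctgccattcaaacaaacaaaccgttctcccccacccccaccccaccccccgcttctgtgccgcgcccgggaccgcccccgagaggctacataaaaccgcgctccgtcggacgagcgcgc

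The positions of the genes, all of them protein coding, are those of GRCm38 in the GENCODE M21 annotation. Klf6 spans chr13:5861482-5870394, Jun chr4:95049034-95052222, Atf3 chr1:191170296-191218039, Egr1 chr18:34859823-34864984, Fos chr12:85473890-85477273 and Dusp1 chr17:26505590-26562128. Klf4 (chr4:55527143-55532466) shares its chromosome with Jun, and Junb (chr8:84974484-84978718) and Ier2 (chr8:84661331-84662852) share another. These spans and the windows above come from different annotations, whose start sites are the same for Jun and not for the other genes with a window shown. The windows of Atf3 and Dusp1 lie inside the longer spans given here, and that of Klf6 reaches just into its span.

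Values are log2 TPM, where TPM is the share of all transcripts of a library that a gene holds, corrected for gene length and put on a common scale, with a pseudocount of 1, and the submitters had corrected liver and intestine toward each other as 2 batches. The means of liver and intestine lie within 1 log2 unit of each other for 99.8% of genes and the median SD of a gene in liver is 0.355 times that in intestine, so levels were compared within liver or between the gut segments, never between liver and gut. Genes were called at an adjusted p under 0.05 from limma, fitted over all genes of a tissue with the 3 groups together. A fold change on this scale understates that of a low gene. The batch correction may also have rescaled differences within a tissue gene by gene, so each fold is one of corrected values. Because whole tissue was measured, more RNA per cell and more cells of a type cannot be told apart. The labels do not say in words that each library of a group is another animal, and the p-values measure the spread between these libraries only. Read depth is unknown, and the number of libraries in a group limits the precision.

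In liver, resection came with higher levels of most of the group. Of the 9 genes, 7 rose in SBR vehicle over sham vehicle and none fell, against 37.4% of the 15901 genes tested that were called higher. Atf3, Jun, Egr1 and Klf6 had the largest differences, 7.31-fold, 3.62-fold, 3.53-fold and 3.40-fold. Fos, Klf4 and Junb rose by 2.35-fold, 1.71-fold and 1.45-fold. Ier2 and Dusp1 did not pass the test.

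Atf3, a stress-induced repressor and activator that dimerises with JUN, stood at 1.79, 1.71, 2.09, 1.90 and 1.81 log2 TPM in the 5 sham vehicle livers. In the 8 SBR vehicle livers it ran from 3.87 to 5.49 with a median of 4.82. The lowest resected liver was far above the highest sham liver. The mean difference was 2.87 (SE 0.30, 95% interval 2.24 to 3.50) on the log2 scale, with a limma adjusted p of 6.86e-07. It was the 16th largest rise among the 15901 genes tested.

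Klf6, a zinc finger factor with roles in hepatocyte growth control and in stellate cells, stood at 4.14, 3.98, 4.06, 4.27 and 4.10 log2 TPM in the sham livers. It ran from 5.24 to 6.29 with a median of 6.05 in the SBR vehicle livers. The groups lay about 1 log2 unit apart at their nearest libraries. The mean difference was 1.76 (SE 0.20, 95% interval 1.35 to 2.17, limma adjusted p of 1.21e-06).

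The AP-1 subunits differed in how far they moved. Jun, the partner that gives AP-1 most of its DNA binding, stood at 4.71, 4.68, 4.68, 5.03 and 4.82 log2 TPM in sham livers and ran from 6.21 to 7.09, with a median of 6.68, in SBR vehicle livers. Its difference of 1.86 (SE 0.15, limma adjusted p of 3.96e-08) had the smallest error among the 7 genes called, and the groups did not overlap. Fos, which binds DNA only in a pair with a JUN protein, stood at 3.35, 3.92, 3.63, 4.17 and 3.73 in sham livers and ran from 4.26 to 6.00 with a median of 5.03 in SBR vehicle livers. The groups did not overlap, but the nearest libraries were close, and the difference was 1.23 (SE 0.25, limma adjusted p of 6.17e-04). Junb, often a brake on JUN in growth control, was the highest of the group in every liver arm by group mean of the batch-corrected values, at 6.69 ± 0.18 (SD, n = 5) in sham and 7.23 ± 0.29 (SD, n = 8) in SBR vehicle. Its difference was 0.54 (SE 0.16, limma adjusted p of 0.0114), and the groups overlapped in 1 resected library, 6.77 against a highest sham value of 6.88.

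Egr1, a zinc finger factor downstream of ERK and SRF, was the most scattered of the group in sham livers, at 3.70, 3.08, 2.12, 2.81 and 2.91 log2 TPM. It ran from 3.87 to 5.79 with a median of 4.81 in SBR vehicle livers. The lowest resected liver was just above the highest sham liver. The difference was 1.82 (SE 0.30, limma adjusted p of 7.77e-05). Klf4, a factor tied to epithelial differentiation and endothelial quiescence, stood at 4.19, 4.40, 4.49, 4.36 and 4.33 in sham livers and ran from 4.50 to 5.99, with a median of 5.07, in SBR vehicle livers. The groups touched without crossing, at 4.49 and 4.50. The difference was 0.77 (SE 0.18, limma adjusted p of 0.00173).

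Ier2, a nuclear protein of small size, stood at 5.86 ± 0.18 (SD, n = 5) in sham and 5.96 ± 0.28 (SD, n = 8) in SBR vehicle livers. The 95% interval of its difference ran from -0.16 to 0.37 (limma adjusted p of 0.536). Dusp1 stood at 4.06 ± 0.34 (SD, n = 5) and 4.27 ± 0.46 (SD, n = 8), with an interval from -0.22 to 0.65 (limma adjusted p of 0.424). Both intervals leave out a 2-fold rise, which is 1 on this scale.

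For 6 of the 9 genes, all but Junb, Ier2 and Dusp1, the arms did not overlap, against 15.6% of all genes tested that were not overlapping and higher. For 5 of these 6, the exact two-sided permutation p was 7.77e-04, the smallest that 5 and 8 libraries allow, and for Klf4 it was 0.00233. Genes in general ran higher in resected livers, with a median difference of 0.25 over all genes. With each library centred on its median over all genes, 3234 genes (20.3%) were called higher and 4594 lower, in place of 5953 higher and 710 lower. Under that scaling 6 of the 9 were still called higher, Junb missed the threshold at 0.23 (adjusted p of 0.197), and Ier2 and Dusp1 turned negative at -0.20 and -0.09 without being called.

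**Figure D1:**
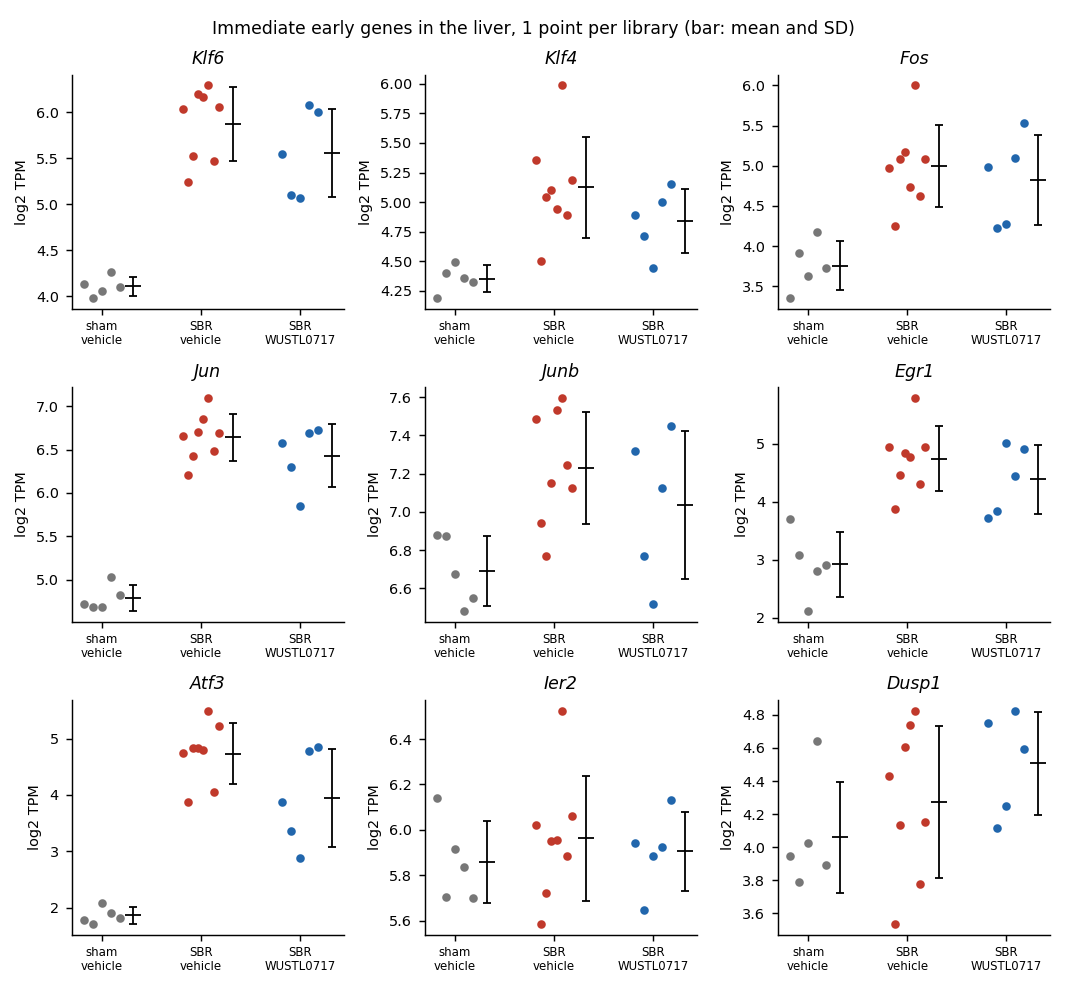
Each of the 9 panels plots 1 gene in liver, with log2 TPM on the vertical axis, 1 point per library and a bar for the mean and SD of the group. Points of SBR vehicle and of SBR WUSTL0717 sit above every sham vehicle point for Klf6, Fos, Jun, Egr1 and Atf3, and the arms intermix for Ier2 and Dusp1.

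The drug did not bring a called change to any of the 9 genes in resected livers. In SBR WUSTL0717 against SBR vehicle 0 of 9 were called, against 4.10% of all genes tested, 1 of 9 had an unadjusted p under 0.05 (17.2% of all genes), and the unmoderated two-sample test called 0 of all 15901 genes. Of the 9 genes, 8 had a lower mean with the drug. Atf3 had the largest difference. It stood at 3.87, 3.35, 2.88, 4.77 and 4.85 log2 TPM in the treated livers, so 2 of the 5 lay below the lowest untreated resected liver, 1 was level with it at 3.87, and 2 lay near the untreated median. Its difference was -0.78 (SE 0.30, 95% interval -1.42 to -0.15, limma adjusted p of 0.17, exact permutation p of 0.0645).

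Klf6 stood at 5.54, 5.10, 5.07, 6.07 and 6.00 log2 TPM in the treated livers. The livers that were high for Atf3 were high for Klf6 too. The difference from SBR vehicle was -0.32, with an interval from -0.73 to 0.10 (limma adjusted p of 0.454). For Jun it was -0.21 (interval -0.53 to 0.10), for Egr1 -0.35 (-0.98 to 0.27), for Klf4 -0.29 (-0.66 to 0.08), for Junb -0.19 (-0.53 to 0.14) and for Fos -0.17 (-0.69 to 0.35). Ier2 differed by -0.06 (-0.32 to 0.21) and Dusp1, alone in the upward direction, by 0.23 (-0.20 to 0.67). A fold of 0.5, which is -1 on this scale, lies outside each of these intervals except that of Atf3. A limit of another kind is that the count of all genes called in this comparison, 652, fell to 93 without treated liver 3 and rose to 1075 without treated liver 4, while the count of members stayed at 0. With centred libraries 1837 genes were called higher and 1294 lower, in place of 229 and 423, and again no member.

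Against sham vehicle, treated resected livers kept 5 of the 9 genes called higher, against 27.9% of all genes tested. These were Atf3 at 2.09 (SE 0.34, limma adjusted p of 3.93e-04), Jun at 1.64 (SE 0.16, limma adjusted p of 4.27e-06), Egr1 at 1.47 (SE 0.33, limma adjusted p of 0.00405), Klf6 at 1.45 (SE 0.22, limma adjusted p of 2.2e-04) and Fos at 1.06 (SE 0.28, limma adjusted p of 0.00955). The same 5 genes did not overlap between the groups, against 27.4% of all genes tested that were not overlapping and higher. Klf4 (0.49, adjusted p of 0.067), Dusp1 (0.45, adjusted p of 0.137) and Junb (0.35, adjusted p of 0.14) missed the threshold in limma, and Ier2 stood at 0.05 (adjusted p of 0.811). Other gene lists moved with the group in this comparison, and their part in it was not tested. Heat shock genes summed to 1047.5 to 2023.5 TPM in treated livers, all above the 900.1 to 953.5 TPM of sham livers, and 4 of 12 were called higher, Hspa8 (0.57), Hspb1 (1.15), Hspa4l (0.56) and Hsp90aa1 (0.71), a share near the 27.9% of all genes. Treated livers also lay above all sham livers in the summed markers of Kupffer cells and macrophages (127.3 to 153.1 against 78.2 to 105.1 TPM), of endothelium (81.5 to 94.5 against 60.5 to 73.6 TPM) and of neutrophils (3.87 to 10.5 against 2.10 to 3.55 TPM). The stellate cell and cholangiocyte lists did so as well. So did enterocyte markers (1050.9 to 1325.5 against 703.3 to 953.1 TPM) and ileal markers (32.9 to 43.4 against 25.8 to 32.5 TPM). Such a separation was thus not particular to lists of liver cells. In SBR vehicle livers the heat shock sum ran from 742.6 to 1358.0 TPM. Both liver comparisons with sham share the same 5 sham libraries. Without treated liver 3 the count of members was 7, with Klf4 at 0.59 (limma adjusted p of 0.0365) and Junb at 0.47 (limma adjusted p of 0.0451) added. Klf4 was also called by the unmoderated test (adjusted p of 0.0269) and with the pair of groups fitted alone (limma adjusted p of 0.0134). The count rose to 8 with library weights, where 7998 of all genes were called higher, and with centred libraries, where 1694 genes were called higher and 1423 lower in place of 4436 and 144, it stayed at 5.

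**Figure D2:**
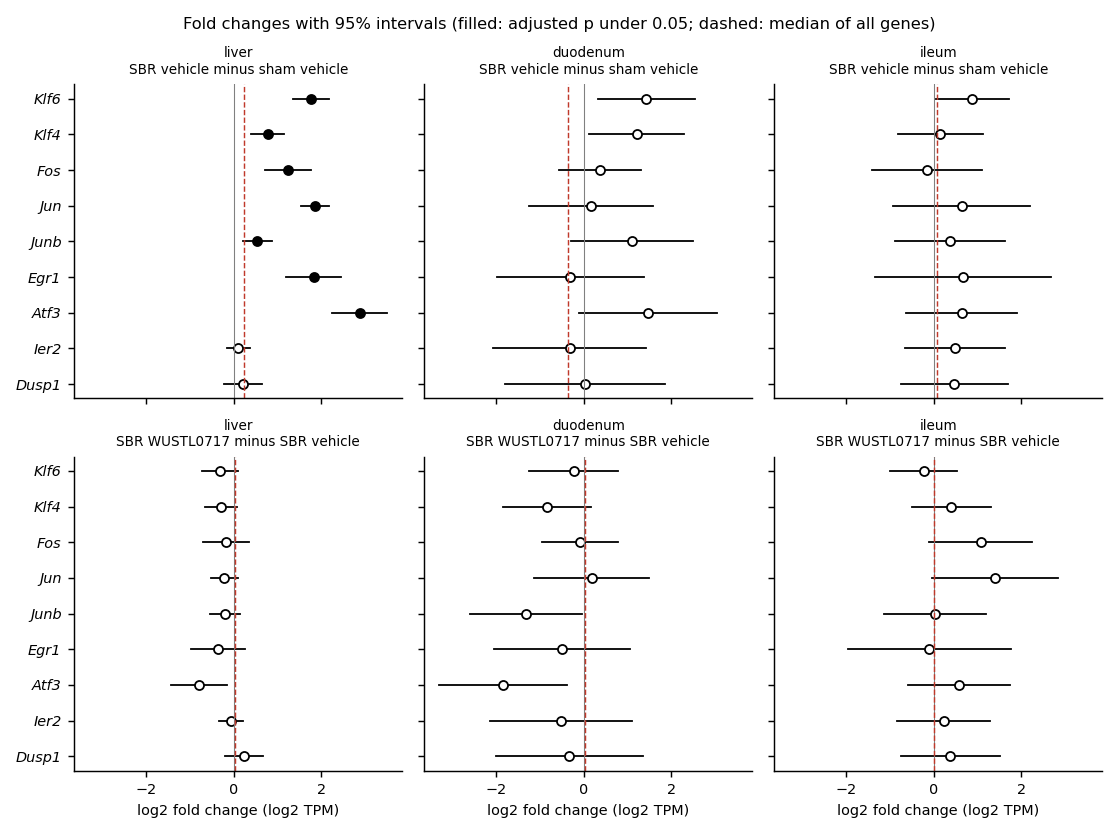
Each panel gives, for 1 tissue and 1 comparison, the log2 fold change of the 9 genes on the horizontal axis as a circle with its 95% interval, filled where the adjusted p was under 0.05, and the median of all genes as a dashed line. All 7 filled circles are in the panel of SBR vehicle minus sham vehicle in liver, and for each gene the intervals in duodenum and ileum are wider than those in liver.

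Several resected livers were high or low for most of the 9 genes at once. SBR vehicle liver 6 was the highest of its group for 9 of 9 genes, and SBR vehicle liver 2 was the lowest for 8 of 9. Treated liver 5 was the highest of its group for 6 of 9. In the sham group this was not seen, where no liver was the highest for more than 4 of the 9 genes or the lowest for more than 3. With each group's mean taken off, all 36 pairs of members had a positive Pearson r over the 18 livers, from 0.32 to 0.89 with a median of 0.67. The livers also share a shift common to most genes, since the median r of Klf6 with all genes was 0.53, and after each library was centred on its median, a setting chosen after seeing the data, the pairs ranged from 0.17 to 0.87 with a median of 0.52.

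Klf6 was closest to Jun (r = 0.89, rank 53 of 15897 genes) and Atf3 (r = 0.88, rank 56) among the members, then to Dusp1 (r = 0.83, rank 312). Centred on the library medians, Atf3 was the second most like Klf6 of 15900 genes at r = 0.87, Jun stood at 0.75, Fos at 0.70 and Dusp1 at 0.69, and the median over all genes was -0.03. The 5 genes most like Klf6 in liver were Hivep2 (r = 0.95), Tnfrsf11a (0.95), Bcl2l1 (0.94), Clic4 (0.93) and Selplg (0.93), none of them a member. These r values describe 18 livers of unknown read depth, whose library medians ran from 3.05 to 3.77 log2 TPM, and no test was made on them.

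**Figure D3:**
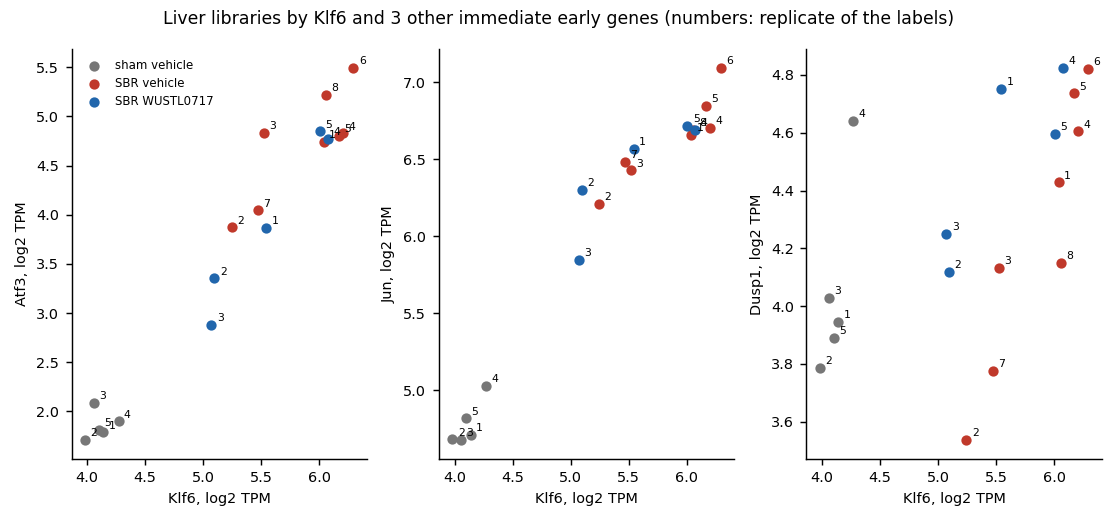
The 3 panels plot, for the 18 liver libraries, Klf6 on the horizontal axis against Atf3, Jun or Dusp1 on the vertical axis, all in log2 TPM, with the library number beside each point. Sham vehicle livers form a tight cluster between 3.98 and 4.27 for Klf6, while the resected livers spread from 5.07 to 6.29.

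Scatter also differed between arms for several members, and no test was made on it. The median SD over all genes was 0.18 in sham, 0.27 in SBR vehicle and 0.19 in treated livers. For Klf6 the SD was 0.11 in sham livers, larger than that of 14.8% of genes, and 0.40 in SBR vehicle and 0.48 in treated livers, larger than that of 84.9% and 91.3% of genes. Klf4 likewise had an SD of 0.11 in sham and 0.43 in SBR vehicle livers. In the same order of arms Ier2 had SDs of 0.18, 0.28 and 0.17, and Dusp1 of 0.34, 0.46 and 0.31. Egr1 was scattered in each arm, with SDs of 0.57, 0.56 and 0.60, each larger than that of at least 94.3% of genes. The limma fit assumes equal spread in the arms.

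The wider pathway was examined through 10 lists of related genes. Of 35 other immediate early genes, 20 rose and none fell in SBR vehicle against sham vehicle livers, with a median of 0.60 against 0.25 for all genes. Myc, the growth regulator, rose by 2.52 (SE 0.24, limma adjusted p of 2.6e-07), from 2.85 ± 0.40 to 5.36 ± 0.50 log2 TPM (SD, n = 5 and 8). Rhob, Rgs2 and Ccn2 rose by 1.22, 1.26 and 1.84. Of 10 other AP-1 subunits 6 rose, among them Fosl2 (1.00), Mafk (0.93), Maff (0.68) and Batf2 (0.52). Of 4 other EGR and NR4A factors, only Nr4a1 was called, at 0.97 (adjusted p of 0.00109 in limma). The 12 other Kruppel-like factors were split, with Klf5 (0.92) and Klf7 (0.51) among 3 that rose and Klf15 (-0.63) and Klf1 (-0.60) among 3 that fell.

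Negative feedback genes of the MAP kinases were among those that rose. Of 16 phosphatases and feedback inhibitors other than Dusp1, 12 rose and none fell, with Dusp8 at 1.99 (SE 0.24), Dusp5 at 1.73 (SE 0.22), Dusp10 at 1.22 (SE 0.16) and the ERK inhibitor Spry2 at 1.02 (SE 0.12). Of 25 MAP kinase pathway genes and SRF partners, 10 rose, with Mapk3, which encodes ERK1, at 0.82 and Mrtfa, a coactivator of SRF, at 0.62, and 1 fell. Of 9 genes of the EGF receptor and its ligands 7 rose, with Erbb2 at 1.22, the ligand Btc at 1.24 and the ligand Hbegf at 0.61, while the receptor Egfr fell by 1.07 (SE 0.17, limma adjusted p of 6.11e-05). Of 18 genes described as targets of AP-1, EGR1 or KLF6, 16 rose, with Spp1, which is also a cholangiocyte marker, at 3.31, Ccnd1 at 2.64, Timp1 at 2.26 and Vim at 1.56. Of 12 genes of the integrated stress response, in which ATF3 acts beside ATF4 and CHOP, 6 rose, with Trib3 at 1.10, Atf5 at 0.93, Gadd45a at 0.78 and Ddit3 at 0.75, and 1 fell. Of 12 heat shock genes none was called. Hspa8 had a difference of 0.30 (adjusted p of 0.08) and Hspb1 of 0.48 (adjusted p of 0.16) in limma. With a background of 37.4% called higher, each of these counts describes its list and no more.

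With the drug, 7 of the 153 genes on these lists were called in resected livers, near the 4.10% of all genes tested. Spry2 fell by 0.47 (limma adjusted p of 0.0277), Erbb2 by 0.61 (0.0175), Spp1 by 1.06 (0.0183), Timp1 by 0.90 (0.0263) and Vim by 0.59 (0.0484). Klf15, a factor of fasting metabolism, rose by 0.55 (limma adjusted p of 0.0344) and Herpud1, of endoplasmic reticulum stress, by 0.68 (0.043). None of the 35 other immediate early genes was called, which at the share of all genes is no result about the list. Ier3 had the smallest p, with a difference of -0.76 (adjusted p of 0.0697 in limma), and Rgs2 followed at -0.48 (adjusted p of 0.0894).

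Markers of other liver cells moved with the rise of the group, and their part in it was not tested. All 5 cholangiocyte markers rose in SBR vehicle livers, where their summed level ran from 360.4 to 741.1 TPM against 62.1 to 162.8 TPM in sham livers. All 5 stellate cell markers rose, from a summed level of 55.3 to 81.8 TPM in sham livers to 187.2 to 329.8 TPM. With the drug the summed levels were 204.4 to 481.03 TPM and 116.0 to 203.4 TPM, and 4 cholangiocyte and 2 stellate cell markers fell against SBR vehicle, where 2.66% of all genes were called lower. Of 5 hepatocyte markers 2 fell after resection (4.47% of all genes called lower), and 1 of 5 Kupffer cell and macrophage markers rose (37.4% of all genes called higher). Both neutrophil markers with a row in the table rose, from a summed 2.1 to 3.55 TPM to 3.96 to 17.1 TPM. None of these markers was at 0 throughout a liver group. After the batch correction this held for the duodenal, ileal and acinar markers too, so it does not show which cells were present.

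SBR vehicle liver 7 stood apart in markers of the exocrine pancreas, which summed to 3134.9 TPM against 14.3 to 18.2 TPM in the other 17 livers. Without it the same comparison gave 1.82 for Klf6, 2.97 for Atf3 and 1.88 for Jun, and 7 of 9 genes were called. The count of 7 was the same when each of the other liver libraries was left out in turn, with Klf6 between 1.70 and 1.85 and Atf3 between 2.76 and 2.99.

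In duodenum no gene of the 9 was called between SBR vehicle and sham vehicle, and none of the 15093 genes tested was (0% called). Before adjustment 2426 genes (16.1%) had a p under 0.05, 2 of them members, and the unmoderated two-sample test called 1 gene, not a member. With library weights 2497 genes were called, 2294 of them lower, and with centred libraries 95, of which 91 were higher, again without a member. Klf6 stood at 2.83, 3.68 and 3.12 log2 TPM in the 3 sham duodena and at 5.48, 4.09, 5.07 and 3.92 in the 4 SBR vehicle duodena. The arms did not overlap. The difference was 1.43 (SE 0.50, 95% interval 0.34 to 2.53), with a limma adjusted p of 0.274 and an exact permutation p of 0.0571 where the smallest possible is 0.0286.

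Klf4 stood at 3.51, 4.38 and 4.68 in sham and 5.49, 4.84, 6.01 and 5.25 in SBR vehicle duodena, again without overlap. Its difference was 1.21 (interval 0.13 to 2.29, limma adjusted p of 0.284). Atf3 stood at 2.10, 2.88 and 1.74 and at 4.68, 3.46, 3.00 and 3.69, a difference of 1.47 (interval -0.11 to 3.04, limma adjusted p of 0.331). These 3 genes are the only members without overlap, against 3.41% of all genes tested that were not overlapping and higher. Junb had a mean of 6.57 ± 0.97 (SD, n = 3) in sham and 7.67 ± 0.23 (SD, n = 4) in SBR vehicle duodena, with an adjusted p of 0.382 in limma. Fos, Jun, Egr1, Ier2 and Dusp1 had differences from -0.32 to 0.37. All genes together had a median of -0.36.

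With the drug, Atf3 in resected duodenum stood at 0.12, 1.00, 3.03 and 3.34 log2 TPM, so 2 treated libraries were lower than every other duodenum and 2 were near the untreated ones. Its difference from SBR vehicle was -1.84 (SE 0.67, interval -3.29 to -0.38, limma adjusted p of 0.69, exact permutation p of 0.0857). Junb stood at 6.91, 4.60, 6.93 and 6.98 in treated duodena against 7.48, 7.86, 7.47 and 7.87 in untreated resected ones. All 4 treated values lay below all 4 untreated values (1.05% of all genes), and 1 of them far below. The difference was -1.31 (interval -2.59 to -0.03, limma adjusted p of 0.906, exact permutation p of 0.0286, the smallest that 4 and 4 libraries allow), and without the low library it was -0.73. Klf6 differed by -0.22 (interval -1.24 to 0.79) and Klf4 by -0.83 (interval -1.83 to 0.17). None of the 9 was called, against 0.258% of all genes tested, 2 of 9 had an unadjusted p under 0.05 (5.31% of all genes), and the unmoderated test called 2 of all genes, no member among them. Against sham vehicle the treated duodena also had 0 of 9 called (0.802% of all genes), with 1 of 9 at an unadjusted p under 0.05 (16.9% of all genes) and 2 of all genes, no member among them, called by the unmoderated test. There Klf6 stood at 1.21 (interval 0.11 to 2.30, limma adjusted p of 0.265) with all 4 treated libraries above all 3 sham libraries, a separation that 5.58% of all genes had.

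The duodenal libraries varied in pancreatic RNA. Their summed acinar markers ran from 77.2 to 1157.6 TPM in sham, 15.5 to 758.4 TPM in SBR vehicle and 145.0 to 1346.6 TPM in treated mice, and the part of this in the values above was not tested. Enterocyte markers summed to 142.2 to 301.1 TPM in sham, 319.6 to 430.4 TPM in SBR vehicle and 457.7 to 1364.3 TPM in treated duodena, so the arms did not overlap, as for Klf6, Klf4 and Atf3 after resection. Of these 5 markers only Fabp2, a fatty acid binding protein, was called, in treated against sham duodenum at 3.45 (limma adjusted p of 0.0348). Neutrophil markers summed to 4.70 to 9.39 TPM in sham, 0.896 to 3.92 TPM in SBR vehicle and 1.47 to 2.51 TPM in treated duodena. Treated duodena also lay below all sham duodena in the summed markers of lymphocytes (4.53 to 6.14 against 8.71 to 10.7 TPM), of Kupffer cells and macrophages (38.3 to 46.2 against 50.1 to 179.0 TPM) and of the cholangiocyte list (98.4 to 172.7 against 174.0 to 206.9 TPM). Heat shock genes summed to 507.0 to 840.2 TPM in sham, 158.5 to 1251.4 TPM in SBR vehicle and 371.5 to 4876.6 TPM in treated duodena. The part of these lists in the members' values was not tested either. The ileal markers Fabp6 and Osr2 were at 0 throughout the sham vehicle and SBR vehicle duodena, and Osr2 also in the treated ones. In ileum all 5 acinar markers were at 0 in every group.

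In ileum again none of the 9 genes was called between SBR vehicle and sham vehicle, against 0.349% of all genes tested. Of the 9 genes, 1 had an unadjusted p under 0.05 (8.46% of all genes), and the unmoderated test called 5 of all genes, no member among them. That gene was Klf6, at 4.22, 5.09 and 5.38 log2 TPM in sham and 5.30, 6.15, 5.99 and 5.66 in SBR vehicle ilea. Of the 4 resected ilea, 3 were above all sham ilea, and the difference was 0.88 (SE 0.38, interval 0.05 to 1.71, limma adjusted p of 0.553). Several marker lists separated the same arms, and their part was not tested. Ileal markers summed to 104.0 to 130.8 TPM in sham and 363.1 to 460.4 TPM in SBR vehicle ilea, the cholangiocyte list to 259.1 to 334.2 and 362.5 to 591.6 TPM, macrophage markers to 117.0 to 157.8 and 87.3 to 110.9 TPM, and duodenal markers to 29.2 to 37.2 and 11.8 to 27.4 TPM. Across the 3 tissues the mean of Klf6 was higher in SBR vehicle than in sham vehicle, and the test passed only in liver.

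The drug brought no call among the 9 in resected ileum (0.0697% of all genes called), none had an unadjusted p under 0.05 (6.87% of all genes), and the unmoderated test called 1 of all genes, not a member. Jun had the largest difference. It stood at 5.85, 4.76, 5.78 and 4.07 log2 TPM in untreated and 6.72, 6.01, 7.25 and 6.07 in treated resected ilea, without overlap, against 2.56% of all genes tested that were not overlapping and higher. The difference was 1.40 (SE 0.66, interval -0.04 to 2.84, limma adjusted p of 0.759, exact permutation p of 0.0286). Fos differed by 1.07 (interval -0.10 to 2.24) and Klf6 by -0.23 (interval -0.999 to 0.535). Heat shock genes summed to 359.1 to 785.5 TPM in untreated and 522.1 to 2785.6 TPM in treated resected ilea, and their part was not tested.

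Against sham vehicle Jun stood 2.03 higher in treated ileum (interval 0.48 to 3.59, limma adjusted p of 0.206), where the 3 sham values, 3.97, 3.00 and 6.47, were far apart. Without sham ileum 2, the lowest of these 3, the difference was 1.29 (limma adjusted p of 0.56), and without sham ileum 3, the highest, it was 3.03 and Jun was called, as it was with library weights at 2.78 (adjusted p of 0.0438). In the fit with every library 0 of 9 were called (2.17% of all genes), 1 of 9 had an unadjusted p under 0.05 (14.1% of all genes), and the unmoderated test called 31 of all 15772 genes, no member among them. Of the 153 related genes on the lists, 9 were called higher and 2 lower in this comparison, against 1.66% and 0.514% of all genes tested. Among the other immediate early genes, Bhlhe40 rose by 2.96, Plk3 by 1.97 and Ppp1r15a by 1.69, and Pim1 fell by 1.78. The EGF receptor ligands Areg and Ereg rose by 2.48 and 1.60 (limma adjusted p of 0.028 and 0.011). Marker lists separated these arms too, and their part was not tested. Ileal markers summed to 299.9 to 541.3 TPM in treated and 104.0 to 130.8 TPM in sham ilea. The cholangiocyte list summed to 370.0 to 757.8 and 259.1 to 334.2 TPM, and the hepatocyte list to 3457 to 12556 and 2114 to 3350 TPM. Duodenal markers summed to 16.0 to 22.6 and 29.2 to 37.2 TPM.

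**Figure D4:**
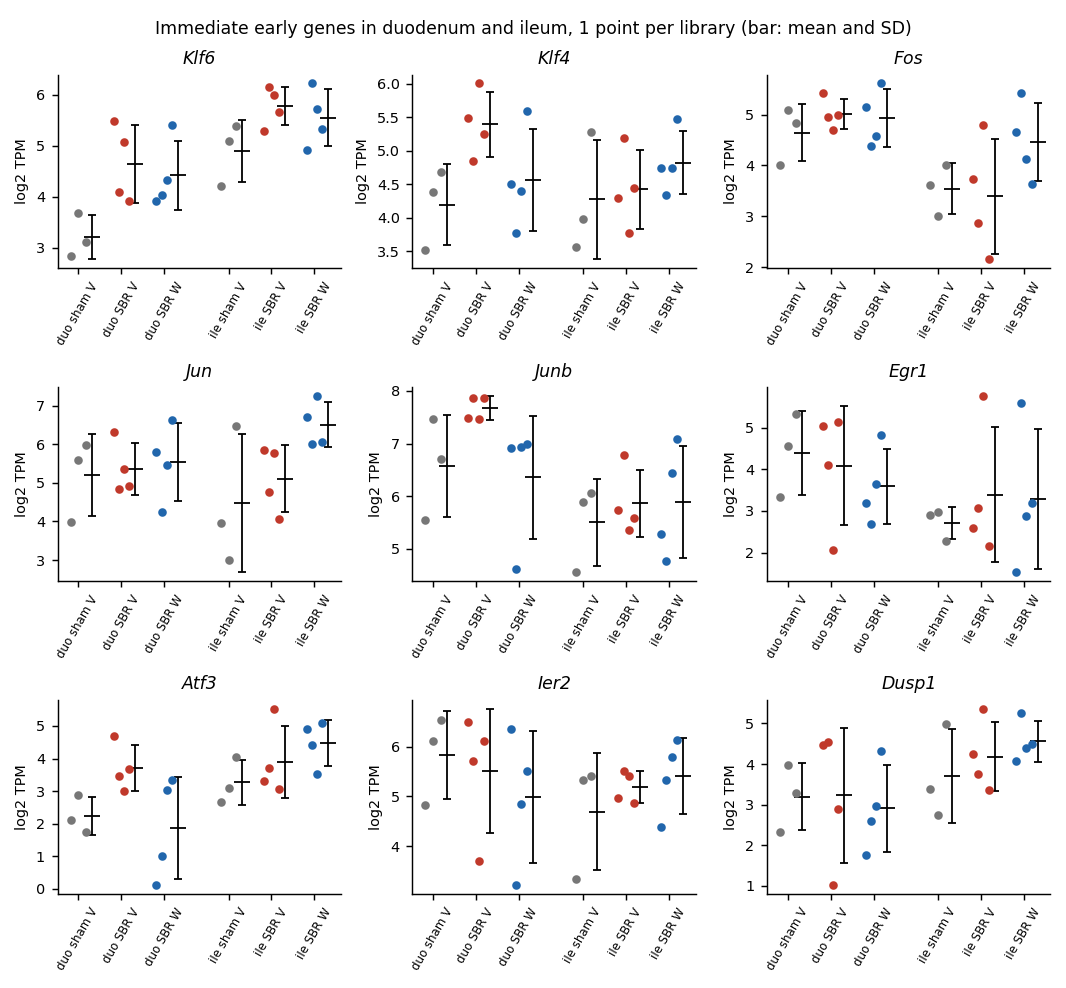
Each panel plots 1 of the 9 genes in duodenum (duo) and ileum (ile) of sham vehicle (sham V), SBR vehicle (SBR V) and SBR WUSTL0717 (SBR W) mice, with log2 TPM on the vertical axis, 1 point per library and a bar for mean and SD. Klf6 lies lower in duodenum than in ileum in each arm by its mean, and in treated duodenum Junb is far below the rest in 1 library at 4.60 and Atf3 is low in 2, at 0.12 and 1.00.

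Within the gut, Klf6 was lower in duodenum than in ileum. In sham mice the means were 3.21 ± 0.43 and 4.90 ± 0.61 log2 TPM (SD, n = 3 each), without overlap (30.1% of all genes), and the difference was -1.68 (SE 0.49, limma adjusted p of 0.0253). Klf6 was the only member called there, against 9.94% of all genes tested that were called lower and 3.35% called higher. In SBR vehicle mice it differed by -1.13 (limma adjusted p of 0.0265), where 49.7% of all genes were called lower, and in treated mice by -1.12 (adjusted p of 0.0286). Most genes were lower in duodenum on this scale, with medians over all genes of -0.52, -0.98 and -0.95 in the 3 arms. Centred on the library medians, the difference of Klf6 was -1.23, -0.20 and -0.24 and was called in no arm. The split of all calls moved with it, in sham mice from 500 higher and 1484 lower to 1058 and 753, in SBR vehicle mice from 968 and 7413 to 2485 and 2202, and in treated mice from 1026 and 7210 to 2357 and 2109. Leaving out 1 of 4 sham libraries (ileum 2 or 3, duodenum 1 or 3) also took the sham call away, with values from -1.64 to -1.44. In SBR vehicle mice the call was lost without ileum 2 or 3 or duodenum 2 or 4 (values from -1.06 to -0.89), and in treated mice without ileum 2 or 3 or duodenum 1, 2 or 3 (values from -1.10 to -0.90).

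In resected mice other members were called between the segments too, and whether the arms differed in this was not tested. In SBR vehicle mice, Fos and Junb were higher in duodenum by 1.62 (SE 0.48, limma adjusted p of 0.00742) and 1.81 (SE 0.58, limma adjusted p of 0.0122), against 6.49% of all genes called higher. Both calls held with centred libraries, where Klf4 joined them. In treated mice Atf3 and Dusp1 were lower in duodenum by 2.61 (SE 0.63, limma adjusted p of 0.00203) and 1.65 (SE 0.69, limma adjusted p of 0.0468), against 48.3% of all genes called lower, and with centred libraries both missed the threshold while Fos was called higher. Dusp1 also lost the call when each of 7 of the 8 libraries was left out in turn, with values from -1.81 to -1.27. By group mean, Junb was the highest of the 9 in duodenum in all 3 arms, and the order in ileum began with Junb in sham and SBR vehicle and with Jun in treated mice. These levels compare batch-corrected values, in which the level of each gene in gut was moved toward that in liver. The order is thus not one of transcript abundance, and neighbours in it were not tested against each other.

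In duodenum all 36 pairs of members had a positive r over 11 libraries with a median of 0.58, and in ileum 29 of 36 did with a median of 0.27. The median r of Klf6 with all genes was 0.30 in duodenum and 0.23 in ileum. Centred on the library medians, the pairs had a median of 0.57 in duodenum and 0.34 in ileum, where the median r of Klf6 with all genes was 0.03 in both. In duodenum Klf4 (r = 0.73, rank 375 of 15071 genes) and Jun (r = 0.72, rank 434) were the members most like Klf6, and with centred libraries Atf3 was (r = 0.72, rank 118 of 15092), ahead of Klf4 (rank 200) and Jun (rank 575). In ileum Ier2 was the most like Klf6 under both scalings (r = 0.69, rank 700 of 15765, and centred r = 0.70, rank 238 of 15771). Jun and Atf3 stood there at ranks 9749 and 8163, and centred at 5549 and 4786. Sham duodenum 1 was the lowest of its group for 8 of 9 genes, treated duodenum 4 the highest for 8 of 9 and sham ileum 3 the highest for 8 of 9. The genes most like Klf6 were others than in liver, Ehhadh (r = 0.96) and Alas1 (0.96) in duodenum and Abl2 (0.98) and Dffa (0.94) in ileum. Egr1 was the most scattered of the 9 in ileum, with a within-group SD of 1.44, larger than that of 99.5% of genes.

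The effect of resection was compared between tissues directly, in fits where both tissues share 1 variance although the median SD of a gene within groups was 0.234 in liver and 0.651 in duodenum. With the variance of each tissue on its own, an alternative chosen after seeing the data, none of the 9 was called between any pair of tissues, so the calls of Jun, Egr1 and Atf3 given next rest on the shared variance. The liver effect exceeded the duodenal one for Jun, by 1.69 (SE 0.53, 95% interval 0.59 to 2.78, limma adjusted p of 0.0179), and for Egr1, by 2.13 (SE 0.72, interval 0.66 to 3.60, limma adjusted p of 0.0254), against 28.7% of all genes tested that were called higher. With separate variances Jun had an SE of 0.66 (limma adjusted p of 0.108) and Egr1 one of 0.82 (limma adjusted p of 0.098), and 1494 genes were called higher in place of 4320. Jun lost the call when sham duodenum 2 or 3 was left out (1.48 and 1.29), and Egr1 when sham duodenum 2 or 3 or SBR vehicle duodenum 3 was left out (2.05, 1.67 and 1.45). Egr1 also lost it with library weights (1.83) and with quantile normalization (1.52). With centred libraries neither was called, at 0.98 and 1.42, and Klf4 alone was, with the smaller effect in liver, while the split of all calls moved from 4320 higher and 453 lower to 1590 and 2300. The liver effect exceeded the ileal one for Atf3, by 2.24 (SE 0.62, interval 0.97 to 3.51, limma adjusted p of 0.0186), against 8.12% of all genes called higher, and the call was lost without sham ileum 3 (1.85), with a pseudocount of 5 (1.51), with library weights (2.42, limma adjusted p of 0.0536) and with separate variances (SE 0.65, limma adjusted p of 0.0595, 509 genes called higher). With centred libraries it was kept at 2.00, with 999 genes called higher and 1127 lower in place of 1276 and 402.

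For Klf6 the effect of resection differed between liver and duodenum by 0.33 (interval -0.61 to 1.27), between liver and ileum by 0.88 (interval 0.08 to 1.69, limma adjusted p of 0.163) and between ileum and duodenum by -0.55 (interval -1.88 to 0.78). No member was called between ileum and duodenum, against 0.0603% of all genes. For the drug effect, none of the 9 was called in any of the 3 pairs of tissues, against 0.0268% in ileum against duodenum, 1.16% in liver against duodenum and 0.636% in liver against ileum. At an unadjusted p under 0.05 there were 1, 1 and 3 of the 9, against 3.18%, 9.74% and 12% of all genes. Fos, Jun and Atf3 were the 3 in liver against ileum, where their drug effects differed by -1.24, -1.61 and -1.36 (limma adjusted p of 0.349, 0.209 and 0.344).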

How the data were processed

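RNA of liver, duodenum and ileum was sequenced after removal of ribosomal RNA. The submitters' processing notes name bcl2fastq, STAR, Subread featureCounts and GRCm38. The authors deposited 1 table of log2 TPM values, after correction of 22 intestinal and 18 liver libraries as 2 batches with ComBat. The pseudocount of 1 was inferred from the values, 2752 of which lie below 0. Groups came from the labels. Genes whose mean over a tissue reached 1 log2 TPM were fitted with limma 3.58.1 in R 4.3.3 (variance trend, 3 groups per tissue, or 6 groups over a pair of tissues), with Benjamini-Hochberg adjustment over all genes tested and a threshold of 0.05, after a test on simulated data. Exact permutation tests were two-sided. The members, the companion lists and the motifs were chosen with earlier results of these data known. Of each list at most 4 called genes were named per tissue, smallest p first, or the 2 with the smallest p where none was called. Genes most like Klf6 were the 5 with the highest r within groups. Alternatives changed the filter, pseudocount, scaling, variance model, weights, groups fitted, threshold and libraries.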

Additional observations from a re-analysis of the deposited data

Results flagged for a closer look

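Of 63 groups of 4 to 10 libraries examined for a library far from the others, 2 held one, where chance marks about 1 in 20. Junb in treated duodenum 2 stood at 4.60 log2 TPM, far below its nearest neighbour at 6.91, a gap of 0.97 of the range of its group. That library was the lowest of its group for 6 of the 9 genes. Dusp1 in sham vehicle liver 4 stood at 4.64 log2 TPM, above a nearest neighbour at 4.03, a gap of 0.718 of the range.

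With 1 variance shared by the tissues, the effect of resection differed for Jun and Egr1 in liver against duodenum, by 1.69 and 2.13, where 28.7% of all genes were called higher, and for Atf3 in liver against ileum, by 2.24, where 8.12% were. All 3 calls were lost with the variance of each tissue on its own and on leaving out certain single sham libraries of the gut, those of Jun and Egr1 with centred libraries, and those of Egr1 and Atf3 with library weights. The median over all genes of the difference between liver and duodenum was 0.64, and of that between liver and ileum 0.21. The submitters' batch correction separated liver from intestine, so batch and tissue cannot be told apart in these differences.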

How the results depend on the processing

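The limits are group sizes of 3 to 8, an unknown depth and a general shift between arms. The 7 calls in liver after resection were kept on leaving out each library in turn. Of the 81 fold changes of members within a tissue, 30 changed sign under at least 1 alternative, 16 of them only on leaving out 1 library, and none of the 30 had been called. The cause of the changes below was not tested.

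The count of members called moved as follows. With library weights it was 8 for treated against sham livers, 1 for treated against sham ileum, 2 for duodenum against ileum in sham mice, and 1 and 0 for the effect of resection in liver against duodenum and against ileum. With a threshold on the unadjusted p and a 2-fold change it was 2, 2 and 1 in duodenum (resection, drug, treated against sham), 1 for treated against sham ileum, 2 for the effect of resection in liver against ileum, and 1, 1 and 3 for the drug effect in ileum against duodenum, liver against duodenum and liver against ileum. With centred libraries it was 0 and 1 for duodenum against ileum in sham and treated mice and 1 for the effect of resection in liver against duodenum. With quantile normalization these 3 counts were 2, 0 and 1. A pseudocount of 5 gave 0 for the effect of resection in liver against ileum. With the variance of each tissue on its own, chosen after seeing the data, it was 0 for the effect of resection in liver against duodenum and 0 against ileum, with table-wide counts of 1659 and 700 genes in place of 4773 and 1678. Leaving out 1 library, the count ranged from 5 to 7 for treated against sham livers, from 0 to 1 for treated against sham ileum and for duodenum against ileum in sham mice, from 1 to 3 for the latter in treated mice, from 0 to 3 for the effect of resection in liver against duodenum and from 0 to 2 against ileum. In the last, ileum sham vehicle 1 or 2 or SBR vehicle 3 left out gave 2 and ileum sham vehicle 3 gave 0. With centred libraries, chosen after seeing the data for this measure, the median r of member pairs was 0.52 in liver, 0.57 in duodenum and 0.34 in ileum, where that of Klf6 with all genes was -0.03, 0.03 and 0.03.

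These differences, none of them called, changed sign. In liver after resection Dusp1 was -0.093 with centred and -0.070 with quantile normalized libraries and Ier2 -0.20 and -0.13. For treated against sham livers Ier2 was -0.25 and -0.26 under these scalings. In duodenum after resection Dusp1 was -0.084 with a pseudocount of 0.1 and -0.26 with weights, Jun was -0.26 with weights, Egr1 was 0.095 and 0.034 with centred and quantile normalized libraries, and Ier2 was 0.083 with centred ones. With the drug in duodenum Klf6 was 0.17 with weights and Jun -0.0086 with quantile normalization. For treated against sham duodenum Dusp1 was 0.071 and 0.067 with centred and quantile normalized libraries and Junb 0.15 with centred ones. In ileum Fos after resection was 0.23 with weights and Junb with the drug -0.11 with quantile normalization.

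Leaving out 1 library, the ranges across 0 were these. In liver Ier2 ran from -0.11 to 0.023 with the drug and from -0.0099 to 0.12 for treated against sham. In duodenum after resection Dusp1 ran from -0.41 to 0.77, Egr1 from -0.84 to 0.37, Jun from -0.43 to 0.57 and Ier2 from -0.81 to 0.28. With the drug Klf6 ran from -0.55 to 0.057, Fos from -0.31 to 0.11, Dusp1 from -1.06 to 0.12, Jun from -0.19 to 0.62 and Ier2 from -1.13 to 0.059. For treated against sham duodenum Fos ran from -0.021 to 0.51, Dusp1 from -0.76 to 0.098, Atf3 from -0.86 to 0.21, Jun from -0.25 to 0.78 and Junb from -0.73 to 0.37. In ileum after resection Klf4 ran from -0.20 to 0.65, Fos from -0.62 to 0.26, Dusp1 from -0.0095 to 1.11, Egr1 from -0.11 to 1.08, Jun from -0.11 to 1.63, Junb from -0.11 to 0.64 and Ier2 from -0.19 to 0.85. With the drug Egr1 ran from -0.86 to 0.69, Junb from -0.37 to 0.40 and Ier2 from -0.018 to 0.57. For treated against sham ileum Egr1 ran from -0.19 to 1.16 and Junb from -0.079 to 0.77.

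Nothing in the labels says that replicate numbers pair the samples. Same-numbered libraries of different arms had correlations of their deviations from -0.32 to 0.33. Differently numbered ones were not examined, so these values do not decide whether the numbers pair them. With the replicate number as a block the count of members was 7 after resection in liver, 7 for treated against sham livers and 0 elsewhere within a tissue, over table-wide counts of 5587 and 6075 genes, and Ier2 in liver turned to -0.012 after resection and 0.059 with the drug, Dusp1 in duodenum to -0.14 and Fos in ileum to 0.19 after resection.

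The number of genes called moved by more than 1.5 times in most comparisons. On leaving out 1 library it ranged in liver from 5399 to 9010 after resection, 2456 to 4875 for treated against sham and 93 to 1075 with the drug, in duodenum from 0 to 589, 22 to 84 and 7 to 28, and in ileum from 3 to 38, 65 to 241 and 2 to 12.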
